A study of Mus musculus with 4 samples.

Results

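The genes described here are the ligands, receptors, Smads and antagonists of the BMP and TGF-beta pathways. They were chosen by name, as 41 gene symbols matched to Ensembl identifiers through GENCODE release M21 (GRCm38). Of these, 40 had a row in the count table of 45706 genes. The identifier of Gdf1 had no row, so Gdf1 was not analysed here. The 40 were 12 ligands, 11 receptors, 8 Smads and 9 antagonists or modulators.

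The 4 libraries came from basal radial glia of the medial neocortex, taken from C57BL/6JOlaHsd mouse embryos at E18.5, and RNA-seq read counts were deposited for each. All 4 belong to a single group and carry a heterozygous Tubb-GFP reporter, and the titles name the dye DiI. There is thus no contrast between conditions, and the question these data can answer is which pathway genes were present and how their levels rank. Basal radial glia are neural progenitors that hold a basal process and lack an apical contact with the ventricle. The labels do not say how the reporter and dye were used for isolation, nor whether the libraries came from separate animals, so p-values reflect no more than the variation among these libraries, possibly a technical one.

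In this superfamily, dimeric ligands bring together type II and type I receptor kinases at the cell surface. The type I receptor phosphorylates receptor-regulated Smads, Smad1, Smad5 and Smad9 for BMPs and Smad2 and Smad3 for TGF-betas and activins, which join Smad4 and enter the nucleus. Secreted antagonists bind the ligands, while inhibitory Smads, Smurf ubiquitin ligases and the co-repressors Ski and Skil act inside the cell. In the developing cortex, BMPs from the dorsal midline pattern the medial pallium and later favour astrocyte fates, and Id genes are their classical targets.

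Depth and sample makeup were as follows. Libraries held 26540656 to 34837657 counts, of which 26630 to 32387 fell on the pathway genes. All 9 radial glia markers and all 6 basal radial glia markers were above 1 TPM, and so were all 7 neuron markers. Summed levels ran from 6045 to 7285 TPM for radial glia, 515 to 696 TPM for basal radial glia and 9446 to 10555 TPM for neurons. Other lists were present too, with 1024 to 1135 TPM for intermediate progenitors and 591 to 722 TPM for astrocytes. Erythroid markers summed to 2377 to 4203 TPM and oligodendrocyte lineage markers to 43.6 to 51.7 TPM. The neuron list thus had the highest sum in all 4 libraries, and the cells of origin of a given pathway transcript cannot be read from bulk RNA. In bulk samples, fewer cells of a type and less RNA per cell cannot be told apart.

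Levels are given in TPM, a read count scaled for gene length and library depth, computed from the deposited counts with each gene's merged exon length. Each gene with at least 10 counts was tested against 1 TPM by edgeR's quasi-likelihood test, adjusted over all 20991 such genes. Of the 39 pathway genes tested, 31 (79.5%) were above 1 TPM and 6 (15.4%) below it. Over all genes tested 65.9% were above and 12.1% below, and over the 15401 protein-coding genes 75.7% and 11.5%. The share above 1 TPM was therefore near that of protein-coding genes in general. The median of log2(TPM + 1) was 3.42 ± 0.15 for the pathway genes (SD, n = 4), against 3.31 ± 0.024 for protein-coding genes and 2.53 ± 0.053 for all genes tested.

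By role, the ligands had the lowest median. On the log2(TPM + 1) scale it was 2.23 ± 0.040 for ligands, 3.72 ± 0.033 for receptors, 3.68 ± 0.051 for Smads and 3.6 ± 0.15 for antagonists and modulators (SD, n = 4). The order of the last 3 lay within their spread. Above 1 TPM were 8 of 12 ligands, 8 of 10 receptors tested, 6 of 8 Smads and all 9 antagonists and modulators. The share was 65.9% over all genes tested and 75.7% over protein-coding genes. Some of these calls, such as those of Bmp4, Nog, Chrd and Bambi, were lost under alternatives given below. The Smads together summed to 144 ± 9.38 TPM, the antagonists and modulators to 124 ± 7.98 TPM, the receptors to 110.5 ± 8.42 TPM and the ligands to 98.6 ± 8.61 TPM. The order of these sums also depends on the length, since with the authors' deposited TPM they were 64.8, 113, 32.6 and 91.3 TPM in the same sequence.

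**Figure D1:**
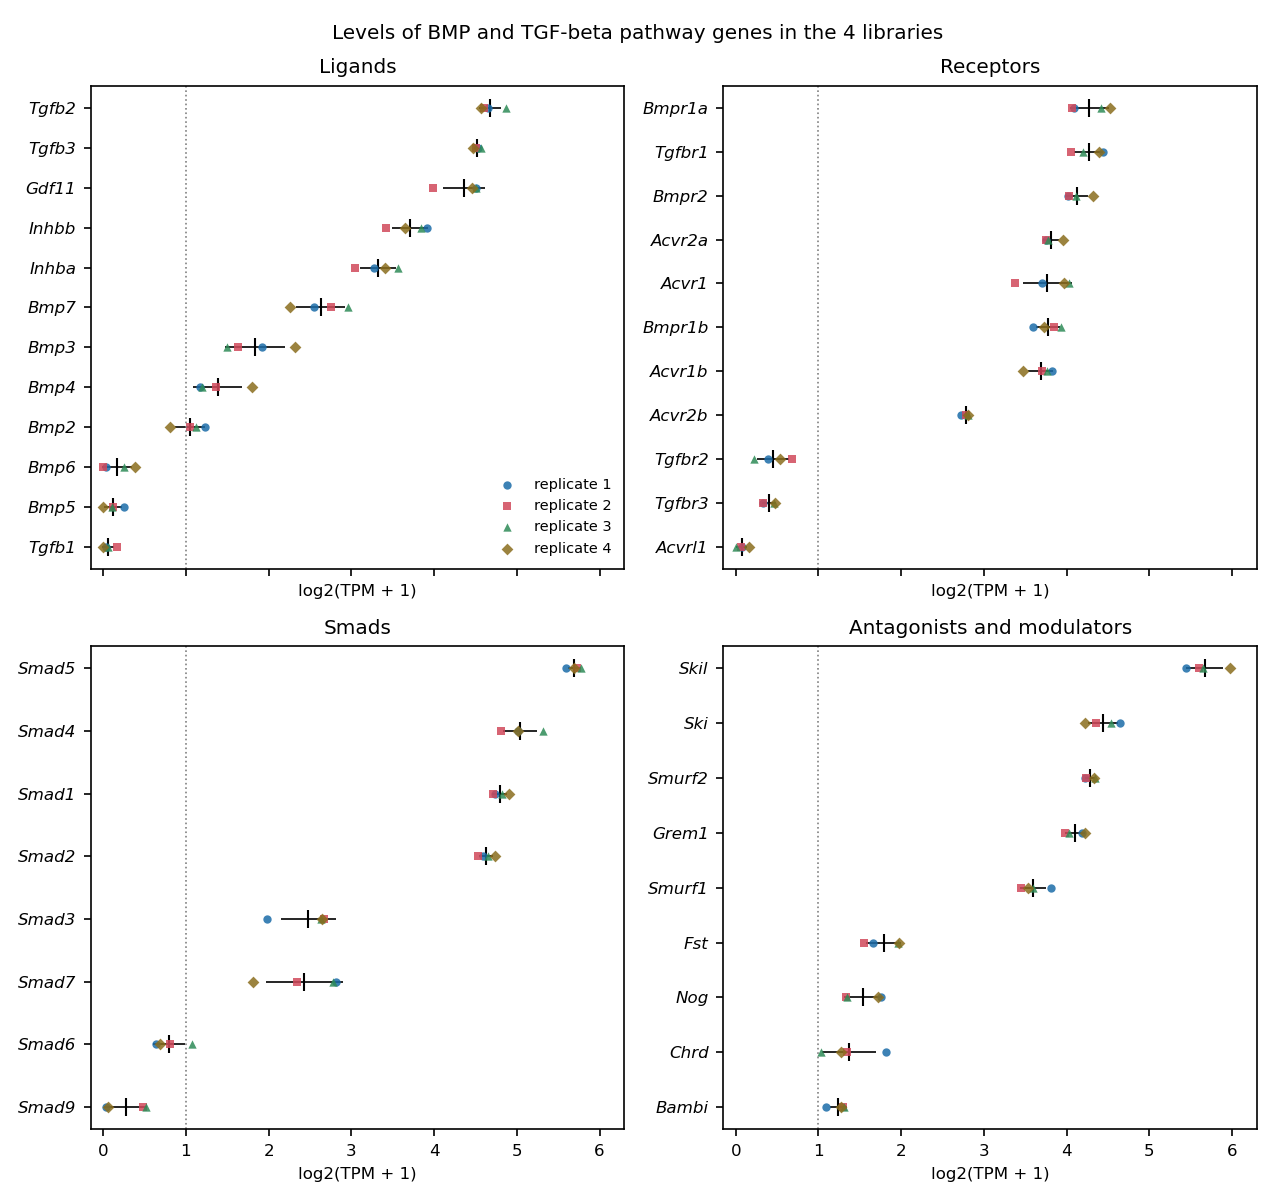
Level of each pathway gene as log2(TPM + 1), with genes ordered by mean within each role. Points are the 4 libraries, the black tick and bar are the mean and SD, and the dotted line marks 1 TPM; Smad5 and Skil lie highest, at 50.8 and 50.3 TPM, and Tgfb1 lowest, at 0.0467 TPM.

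Among the ligands, the TGF-beta genes Tgfb2 and Tgfb3 led by exon length. In the authors' deposited TPM, which scales by gene span, Gdf11 (30.0 TPM) and Inhbb (26.8 TPM) were above Tgfb3 (11.7 TPM) and Tgfb2 (6.02 TPM), so this order depends on the length used. Tgfb2 (ENSMUSG00000039239; chromosome 1, 186622792 to 186705989) was at 24.2, 23.3, 28.3 and 22.8 TPM in replicates 1 to 4. Its log2 distance from 1 TPM was 4.62 ± 0.045 (SE; edgeR adjusted p = 8.52e-15). Tgfb3 (ENSMUSG00000021253; chromosome 12, 86056745 to 86079041) was at 22, 21.8, 22.8 and 21.1 TPM, the lowest coefficient of variation of any member (3.07%). Its value is uncertain to the extent that 12.4% of its exonic bases lie opposite exons of other genes, since the protocol does not mark strand.

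The third TGF-beta gene was close to undetected. Tgfb1 (ENSMUSG00000002603; chromosome 7, 25687002 to 25705077) had 1, 7, 2 and 0 counts in replicates 1 to 4, or 0.0521 TPM over the libraries together (exact Poisson 95% interval 0.025 to 0.0959 TPM, which covers counting error only). It was below 1 TPM by edgeR (log2 -4.36 ± 1.05, SE; edgeR adjusted p = 0.00356), and could be tested without replicate 4 alone, since it fell under 10 counts without replicate 1, 2 or 3. Tgfb1 is known to be made by microglia, endothelium and blood cells. In the same libraries 6 of 10 microglia markers were above 1 TPM, with a summed level of 52.2, 42.1, 47.0 and 25.1 TPM, and no marker at 0 in any library. The endothelial list had 2 of 8 above, at 4.42 to 7.28 TPM in sum. The part of these cells in the Tgfb1 level was not tested.

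By exon length, Gdf11 and the activin subunits came next. Gdf11 (ENSMUSG00000025352; chromosome 10, 128882295 to 128891718), a ligand related to myostatin that limits neurogenesis in several tissues, was at 21.8, 14.8, 21.7 and 21 TPM. Replicate 2 stood apart below the others. The activin B subunit gene Inhbb was at 14.1, 9.73, 13.3 and 11.5 TPM, and the activin A subunit gene Inhba at 8.64, 7.24, 10.8 and 9.61 TPM. Both were lowest in replicate 2 as well. All 3 genes were above 1 TPM in each library.

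The BMP ligands were lower, with Bmp7 first. Bmp7 (ENSMUSG00000008999; chromosome 2, 172868012 to 172940321) was at 4.84, 5.75, 6.76 and 3.81 TPM (log2 2.41 ± 0.12 against 1 TPM, SE; edgeR adjusted p = 1.26e-08). On the authors' deposited scale it averaged 1.03 TPM and was not called (edgeR adjusted p = 0.755). Bmp3, whose product is an atypical BMP that opposes other BMPs, followed at 2.78, 2.10, 1.82 and 3.97 TPM. Bmp4 was at 1.24, 1.58, 1.30 and 2.48 TPM, called above 1 TPM (edgeR adjusted p = 0.0223) but not without replicate 4 (edgeR adjusted p = 0.164) nor with the longest transcript as length (edgeR adjusted p = 0.131). Bmp3 and Bmp4 were both highest in replicate 4, where Bmp7 was lowest.

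Of the remaining BMP genes none was called above 1 TPM. Bmp2, the closest relative of Bmp4, was at 1.35, 1.08, 1.17 and 0.751 TPM, with no difference from 1 TPM called (edgeR adjusted p = 0.647). Bmp6 had 1, 0, 7 and 10 counts and was below 1 TPM (log2 -2.95 ± 1.01; edgeR adjusted p = 0.0231), though not called without replicate 1 (edgeR adjusted p = 0.0579) and under 10 counts without replicate 4. Bmp5 had 7, 4, 3 and 0 counts and was below 1 TPM too (log2 -3.47 ± 0.95; edgeR adjusted p = 0.00752). Without replicate 1 it no longer reached 10 counts, and 46.7% of its exonic bases lie opposite another gene.

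Per library, TGF-beta genes took 47.4 ± 2.93% of the summed ligand level, the activin subunits 21.4 ± 1.41%, Gdf11 20.01 ± 2.2% and the 6 BMP genes 11.1 ± 0.879% (SD, n = 4). The TGF-beta share was between 45.1% and 51.6% and the BMP share between 10.3% and 12.1%, so these did not overlap. With the authors' deposited TPM, the same shares were 19.6% for TGF-beta genes, 40.5% for activin subunits, 32.7% for Gdf11 and 7.14% for BMP genes, which turns the order of the first 3.

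The receptors fell into an abundant set and a set under 1 TPM. Of the 6 type I receptor genes, 5 were above 1 TPM in each library. Bmpr1a, the BMP receptor ALK3 (ENSMUSG00000021796; chromosome 14, 34410734 to 34503341), was at 16, 15.8, 20.3 and 22 TPM. Tgfbr1, the TGF-beta receptor ALK5 (ENSMUSG00000007613; chromosome 4, 47353222 to 47414931), was at 20.6, 15.6, 17.4 and 19.9 TPM. Their ranges overlapped. Acvr1, which encodes the BMP receptor ALK2, was at 12, 9.38, 15.3 and 14.7 TPM. Bmpr1b, the receptor ALK6, was at 11.1, 13.4, 14.3 and 12.2 TPM, though below 1 TPM on the authors' deposited scale, and Acvr1b, the activin receptor ALK4, at 13.1, 12, 12.5 and 10.1 TPM. These 3 genes did not differ beyond their spread between libraries.

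The sixth type I gene, Acvrl1 (ENSMUSG00000000530; chromosome 15, 101128522 to 101145336), encodes ALK1, the BMP receptor of endothelium. It had 2, 2, 0 and 4 counts, 0.0493 TPM over the libraries together (exact Poisson 95% interval 0.0213 to 0.0971 TPM), and with under 10 counts it was not tested. A count of 0, as in replicate 3, allows up to 3 counts, which is at most 0.0854 TPM in any of the libraries. Its co-receptor endoglin, Eng, had a single count, in replicate 4. Endothelial markers were low as well, the highest being Esam at 1.95 ± 0.865 TPM and Egfl7 at 1.71 ± 0.621 TPM, and Tek was at 0 in replicate 2.

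Type II receptors divided in the same way. Bmpr2, the BMP type II receptor (ENSMUSG00000067336; chromosome 1, 59763400 to 59879014), was at 15.2, 15.3, 16.3 and 19.0 TPM. The activin type II receptor genes Acvr2a and Acvr2b were at 12.5, 12.5, 12.6 and 14.5 TPM and at 5.58, 5.86, 6.02 and 6.03 TPM. Every library of Acvr2a was above every library of Acvr2b. Bmpr2 in turn was above Acvr2a in each library.

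Tgfbr2, the obligate type II receptor for TGF-beta ligands (ENSMUSG00000032440; chromosome 9, 116084293 to 116175360), was the exception. It had 23, 55, 13 and 30 counts, or 0.314, 0.597, 0.165 and 0.445 TPM, and was below 1 TPM (log2 -1.39 ± 0.36; edgeR adjusted p = 0.00538). The co-receptor betaglycan, Tgfbr3, which presents TGF-beta 2 to the signalling receptors, was also below it, at 0.256, 0.258, 0.382 and 0.389 TPM (log2 -1.64 ± 0.35; edgeR adjusted p = 0.00155). So Tgfb2, Tgfb3 and Tgfbr1 were among the higher members of their roles, while Tgfbr2 and Tgfbr3 were under 1 TPM in all 4 libraries. The mural list, whose cells are known to express Tgfbr2, had 3 of 6 markers above 1 TPM and summed to 12.1, 14.95, 16.9 and 15.7 TPM, with Pdgfrb at 6.38 ± 1.96 TPM and Abcc9 at 0 in replicate 3. Cspg4, 1 of those 3 at 3.87 ± 0.453 TPM, is on the oligodendrocyte lineage list as well. The part of mural cells in the Tgfbr2 level was not tested.

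The Smads held the most abundant member. Smad5 (ENSMUSG00000021540; chromosome 13, 56703010 to 56742377) was at 47.2, 51.8, 53.9 and 50.5 TPM, above 1 TPM by 5.67 ± 0.027 (log2, SE; edgeR adjusted p = 2.3e-17). Smad4, the common partner of receptor-regulated Smads, was at 31.4, 27.1, 38.8 and 31.3 TPM. Smad1 was at 25.6, 25.2, 27.2 and 29.0 TPM and Smad2 at 23.1, 22.1, 24.1 and 25.5 TPM. The ranges of Smad1 and Smad2 overlapped, and Smad5 was above all other Smads in each library.

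Smad3 and Smad9 were the lower receptor-regulated Smads. Smad3 (ENSMUSG00000032402; chromosome 9, 63646767 to 63757994) was at 2.94, 5.39, 5.20 and 5.23 TPM. Replicate 1 stood apart, with the other 3 libraries within a narrow range. On the authors' deposited scale Smad3 averaged 0.821 TPM and was not called. Radial glia markers also had their lowest sum in replicate 1, at 6045 TPM against 6439 to 7285 TPM elsewhere. So did the basal radial glia, mural, meningeal, erythroid, cortical hem and Cajal-Retzius, and other organ lists. The part of these in the Smad3 value was not tested. Smad9 (ENSMUSG00000027796; chromosome 3, 54755582 to 54801257) had 1, 24, 22 and 2 counts, or 0.0208, 0.397, 0.427 and 0.0452 TPM. It was below 1 TPM (log2 -2.15 ± 0.73; edgeR adjusted p = 0.0226), with replicates 2 and 3 high and replicates 1 and 4 near 0. Together the BMP-regulated Smads summed to 77.8 ± 3.77 TPM and Smad2 with Smad3 to 28.4 ± 2.07 TPM (SD, n = 4), without overlap between libraries.

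The inhibitory Smads were low. Smad7, which blocks both branches, was at 6.01, 4.07, 5.85 and 2.5 TPM, above 1 TPM in all libraries and lowest in replicate 4. Microglia markers had their lowest sum in replicate 4 too, as did the endothelial list, at 4.42 TPM. The astrocyte list, at 591 TPM, and the intermediate progenitor list, at 1024 TPM, were also lowest there. The part of these in the Smad7 value was not tested. Smad6, the BMP-selective inhibitor (ENSMUSG00000036867; chromosome 9, 63953076 to 64022059), was at 0.558, 0.748, 1.10 and 0.606 TPM, with no difference from 1 TPM called (log2 -0.40 ± 0.31; edgeR adjusted p = 0.247). On the authors' deposited scale it averaged 0.123 TPM and was below 1 TPM (edgeR adjusted p = 7.34e-05).

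Of the secreted antagonists, Grem1 stood above the rest. Grem1, which encodes the BMP2 and BMP4 antagonist gremlin 1 (ENSMUSG00000074934; chromosome 2, 113746164 to 113758646), was at 17.2, 14.8, 15.3 and 17.7 TPM. Its level exceeded that of each BMP ligand gene in every library. The activin antagonist follistatin, Fst, was at 2.17, 1.94, 2.88 and 2.94 TPM. Noggin, Nog, was at 2.37, 1.52, 1.54 and 2.29 TPM and chordin, Chrd, at 2.52, 1.53, 1.05 and 1.42 TPM, and these 3 genes overlapped. Chrd was called above 1 TPM (edgeR adjusted p = 0.009), but not without replicate 1 (edgeR adjusted p = 0.0969). Nog was called in the full set (edgeR adjusted p = 0.00468), but not with the longest transcript as length (edgeR adjusted p = 0.066).

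Among genes acting at the membrane or inside the cell, the co-repressors led. Skil, which encodes SnoN (ENSMUSG00000027660; chromosome 3, 31095058 to 31122577), was at 42.6, 47.3, 49.3 and 61.9 TPM, and Ski at 24.0, 19.5, 22.2 and 17.7 TPM. Skil was highest in replicate 4, where Ski was lowest, and their ranges did not overlap. The ubiquitin ligase genes Smurf2 and Smurf1 were at 17.7, 17.7, 19.3 and 19.1 TPM and at 13.0, 9.88, 11.1 and 10.6 TPM, also without overlap. The pseudoreceptor gene Bambi was lowest of the 9, at 1.12, 1.45, 1.48 and 1.41 TPM. Its call above 1 TPM (log2 0.45 ± 0.17; edgeR adjusted p = 0.0357) was lost without replicate 2, 3 or 4 (edgeR adjusted p = 0.105, 0.109 and 0.0817) and with the longest transcript (edgeR adjusted p = 0.805), and DESeq2's Wald test gave an adjusted p of 0.0548.

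A level of a few TPM has to be read against transcripts not expected in cortex. Among 16 markers of other organs, 2 passed the test above 1 TPM, the pancreatic genes Gcg at 5.16 ± 1.12 TPM and Pnlip at 4.38 ± 0.828 TPM, and the median of the 16 was 0.12 TPM. The liver gene Apoa2, at 1.35 ± 0.644 TPM, was not called. By exon length, the mean levels of Bmp2, Bmp3, Bmp4, Nog, Chrd, Fst and Bambi were under those of Gcg and Pnlip. Those of Smad3 (4.69 TPM) and Smad7 (4.60 TPM) were under that of Gcg. In the authors' deposited TPM, Gcg averaged 2.97 TPM and Pnlip 2.96 TPM. There Nog (6.78 TPM), Fst (5.98 TPM) and Chrd (3.865 TPM) were above both, and Bmp2, Bmp3, Bmp4 and Bambi were still under both. Bmp7, Bmpr1b, Acvr1, Acvr2a, Acvr2b, Smad3, Smad7 and Smurf1, all called above 1 TPM by exon length, were under both there as well.

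Paralogs and partners were then compared within libraries, as log2 ratios of (TPM + 1). Of 21 pairs, 20 had a single sign in all 4 libraries. With 4 libraries the exact two-sided sign-flip permutation test cannot go below p = 0.13 (adjusted over the 21 pairs, 0.131), which those 20 pairs reached, so no pair can pass 0.05. The ratios were widest for pairs whose second gene was below 1 TPM. Smad5 over Smad9 was 5.42 ± 0.20, Tgfb2 over Tgfb1 4.61 ± 0.16 and Tgfbr1 over Tgfbr2 3.81 ± 0.30 (SD, n = 4). These values depend on the pseudocount, since the level of the second gene is smaller than the pseudocount of 1.

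Pairs with both mean levels above 1 TPM gave ratios smaller in size than those of Smad5/Smad9, Tgfb2/Tgfb1 and Tgfbr1/Tgfbr2. So did Smad6 over Smad7, at -1.63 ± 0.43, with Smad6 at 0.754 TPM. The pseudocount of 1 also narrows ratios where a gene is at a few TPM, such as Nog (1.93 TPM) or Fst (2.48 TPM). Smad2 over Smad3 was 2.14 ± 0.33, with replicate 1 highest at 2.61. Acvr2a over Acvr2b was 1.03 ± 0.081 and Bmpr2 over Acvr2a 0.32 ± 0.052, both far larger than their spread. Smad1 over Smad5 was -0.90 ± 0.10, and Ski over Skil was -1.23 ± 0.39 with a range from -1.75 to -0.80. Between ligands and their antagonists, Inhba over Fst was 1.53 ± 0.086 and Bmp7 over Nog 1.09 ± 0.51. Bmpr1a was above Bmpr1b by 0.50 ± 0.24 and above Acvr1 by 0.51 ± 0.15. Tgfb2 and Tgfb3 were close, at 0.16 ± 0.099. The pair without a single sign was Nog over Chrd, at 0.17 ± 0.24, higher in 2 of 4 libraries (exact permutation p = 0.5).

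**Figure D2:**
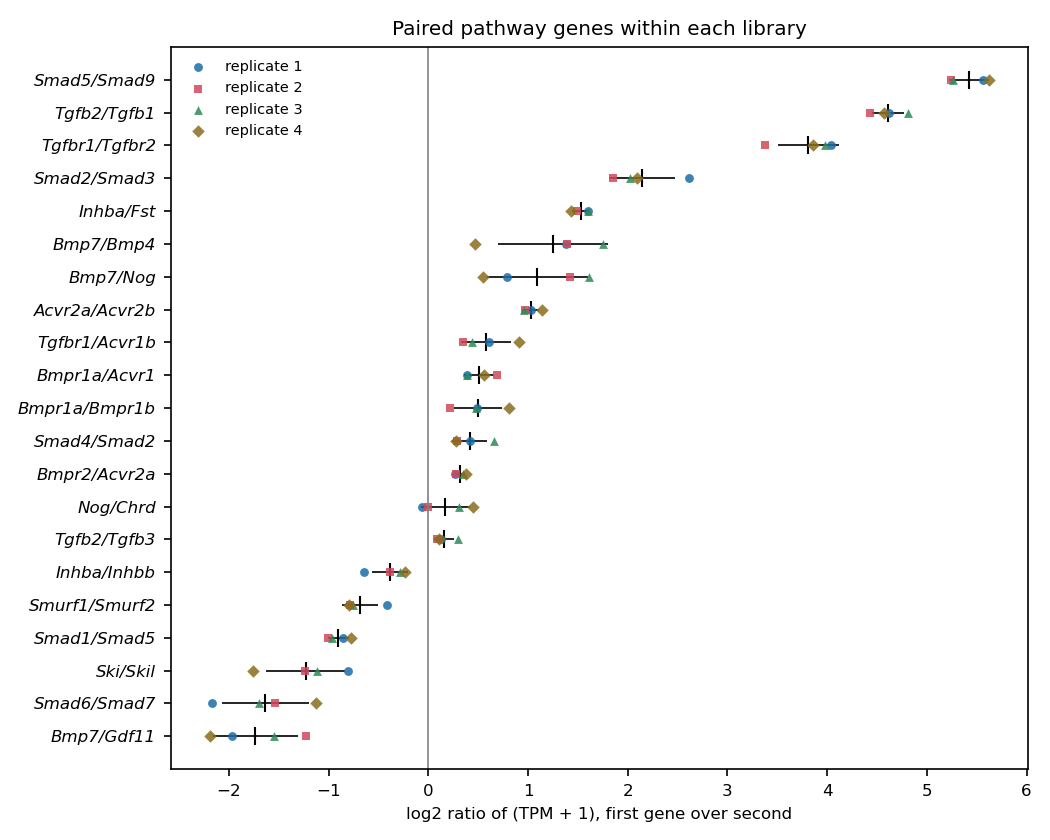
Log2 ratio of (TPM + 1) for 21 fixed pairs, first gene over second, with 1 point per library and the mean and SD as black tick and bar. Points of Smad5/Smad9, at the top, lie between 5.24 and 5.62; those of Nog/Chrd lie on both sides of 0.

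Target genes of the pathway were read from fixed lists. Of 9 BMP targets, 7 were above and 2 below 1 TPM. For comparison, 65.9% of all genes tested were above and 12.1% below, and 75.7% and 11.5% of protein-coding genes. Id2, Id3 and Id1, inhibitors of bHLH transcription factors, were at 1640.0 ± 77.5, 291 ± 48.3 and 190 ± 13.1 TPM (SD, n = 4). Id4 was at 4.14 ± 0.928 TPM, Hey1 at 19.2 ± 7.86 TPM, Dlx5 at 5.76 ± 2.01 TPM and the bHLH gene Atoh8 at 3.16 ± 0.953 TPM. The homeobox genes Msx1 (0.396 ± 0.16 TPM) and Msx2 (0.194 ± 0.191 TPM) were called below 1 TPM (edgeR adjusted p = 0.0216 and 0.0157). The list's members thus spanned several orders of magnitude, and many signals besides BMP control them.

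Of 9 TGF-beta targets reported here, 6 were above and 1 below 1 TPM, beside 65.9% above and 12.1% below over all genes tested. The matricellular gene Ccn1 was at 92.6 ± 8.44 TPM, Pmepa1, whose product restrains TGF-beta signalling, at 47.0 ± 1.42 TPM, and the CDK inhibitor Cdkn1a at 22.5 ± 1.22 TPM. Fibronectin, Fn1, was at 9.66 ± 0.69 TPM, Junb at 3.90 ± 0.704 TPM and Cdkn2b at 1.82 ± 1.05 TPM. Tgfbi and Ccn2, at 1.34 ± 0.551 and 1.08 ± 0.381 TPM, were not called (edgeR adjusted p = 0.151 and 0.724), and 23.2% of the exonic bases of Ccn2 lie opposite another gene. The collagen gene Col1a1 (0.478 ± 0.0736 TPM; edgeR adjusted p = 0.00487) was below 1 TPM. Col1a1 also marks meningeal fibroblasts, whose list of 9 summed to 6.11 to 8.65 TPM with 2 members above 1 TPM.

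**Figure D3:**
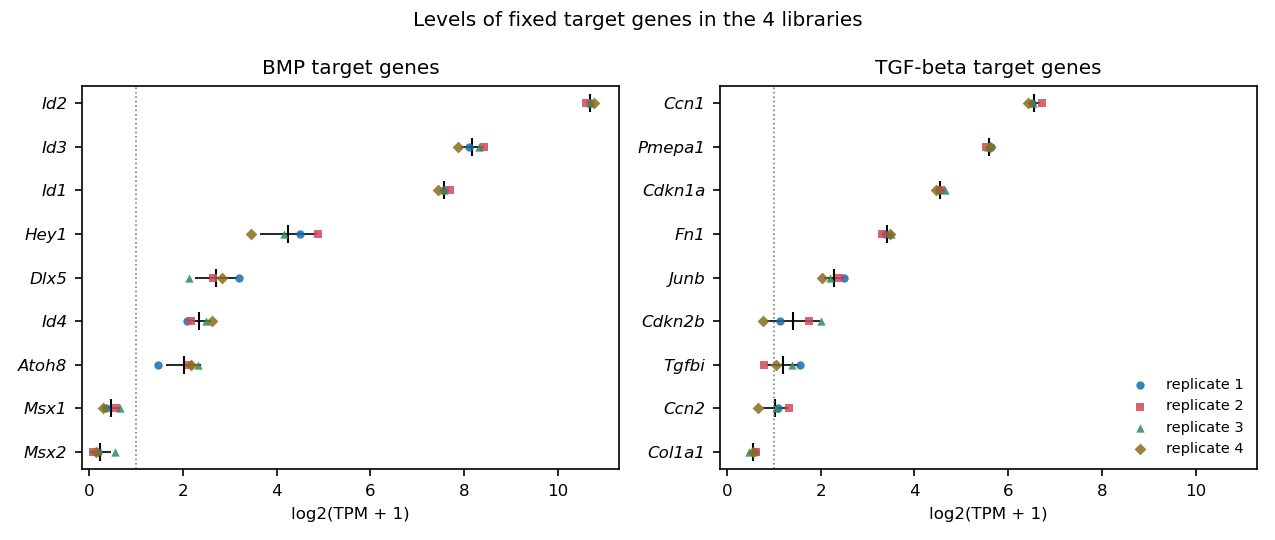
Levels of 9 BMP and 9 TGF-beta target genes as log2(TPM + 1), 1 point per library, with mean and SD as black tick and bar and a dotted line at 1 TPM. Id2 lies highest at 1640.0 TPM; Msx2 and Col1a1 are lowest in their panels, at 0.194 and 0.478 TPM.

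The start regions of an abundant and a low BMP-responsive gene are shown as a description, Id2 as the most abundant of the 9 targets and Smad6, a pathway member known to be induced by BMPs, at 0.754 ± 0.247 TPM. Each is the 250 bases before the RefSeq start (GRCm38.p6), minus strand, 5′ to 3′, at chr12:25096093-25096342 for Id2 and chr9:64022060-64022309 for Smad6. Capitals mark the Smad box GTCT and the GC-rich element GGCGCC, searched on both strands (AGAC is GTCT on the other strand, GGCGCC reads the same on both, and the motifs do not overlap).
Id2: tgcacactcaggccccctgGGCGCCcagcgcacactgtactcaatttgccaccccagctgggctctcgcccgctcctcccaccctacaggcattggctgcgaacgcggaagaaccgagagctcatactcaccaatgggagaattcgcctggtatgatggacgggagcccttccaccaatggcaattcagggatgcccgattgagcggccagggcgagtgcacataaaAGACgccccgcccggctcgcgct
Smad6: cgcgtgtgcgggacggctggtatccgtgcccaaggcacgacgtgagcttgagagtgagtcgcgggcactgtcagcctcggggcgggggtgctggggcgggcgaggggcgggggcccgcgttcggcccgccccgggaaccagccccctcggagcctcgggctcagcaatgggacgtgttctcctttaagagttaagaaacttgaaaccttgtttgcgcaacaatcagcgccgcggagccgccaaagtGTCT
The Id2 window held 1 match of each motif, and the Smad6 window held 1 Smad box and no GGCGCC. No relation to level is read from these windows, since the Id3 window (291 TPM) held no GGCGCC, while those of Id4 (4.14 TPM) and Smad9 (0.222 TPM) each held 1. Of 32851 windows of this length, 82.9% held GTCT and 9.59% GGCGCC, so the Smad box was common and GGCGCC was not. Known Smad-responsive elements of Id genes can lie farther upstream than this window. RefSeq entries were matched for 28 of the 41 pathway genes and 6 of the 9 BMP targets.

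Other pathway genes were counted from 4 further fixed lists. Of 20 other ligand genes, 4 were above and 4 below 1 TPM and 6 had under 10 counts. Among all genes tested, 65.9% were above and 12.1% below. The highest were Gdf9, at 13.7 ± 2.05 TPM, Inha, the inhibin alpha subunit, at 12.5 ± 2.30 TPM, and the Nodal antagonist Lefty1 at 4.41 ± 1.81 TPM. No count was found for Gdf2, Bmp10, Bmp15 and Inhbc, which allows at most 0.122, 0.0811, 0.119 and 0.196 TPM in any library. Of 9 other receptors and co-receptors, 3 were above 1 TPM and none was called below, while 3 had under 10 counts and were not tested. Those above were Neo1, the receptor neogenin, at 29.6 ± 3.65 TPM, and the repulsive guidance molecule genes Rgmb and Rgma, whose products are BMP co-receptors, at 6.45 ± 1.27 and 5.15 ± 0.849 TPM.

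Regulators outside the 41 were counted in the same way. Of 25 other secreted regulators, 17 were above and 5 below 1 TPM and 1 had under 10 counts. The share above lay between that of all genes (65.9%) and that of protein-coding genes (75.7%), and the share below was higher than over all genes (12.1%). Fstl1, a follistatin-like glycoprotein, was at 143 ± 7.69 TPM by exon length and averaged 41.2 TPM in the authors' deposited table, and Twsg1, the BMP-binding twisted gastrulation protein, at 24.3 ± 2.33 TPM. Ltbp4, which tethers latent TGF-beta to the matrix, was at 21.1 ± 1.68 TPM. Of 18 intracellular regulators, 17 were above 1 TPM and none below. Crebbp, a co-activator of Smads and many other factors, was at 125 ± 13.3 TPM, the TAK1-binding gene Tab1 at 111 ± 6.47 TPM, and Fkbp1a, which holds type I receptors inactive, at 59.3 ± 4.3 TPM.

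The spread between libraries was compared with what counting alone would give. Over the 39 tested pathway genes the median coefficient of variation (CV) was 16.5%, and the counting part, from the mean count, was 4.46%. Over all genes tested both were higher, at 19.8% and 8.2%. The median ratio of CV to counting part was 2.92 for the pathway genes, against 2.5 over all genes tested. Of the 39, 19 had a ratio above 3, against 38.2% of all genes. The higher ratio thus goes with a smaller counting part, not with a larger CV. Skil had the highest ratio, with a CV of 16.4% against 1.47% from counting. Bmpr2, Bmpr1a, Smad7, Smad4 and Acvr1 followed, with ratios between 5.07 and 5.72. At the other end, the CVs of Acvr2b (3.57%), Tgfb3 (3.07%) and Bambi (12%) lay under their counting part. The largest CVs, 115% for Tgfb1, 110% for Bmp6, 98.6% for Smad9 and 88.7% for Bmp5, were all of genes with few counts.

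**Figure D4:**
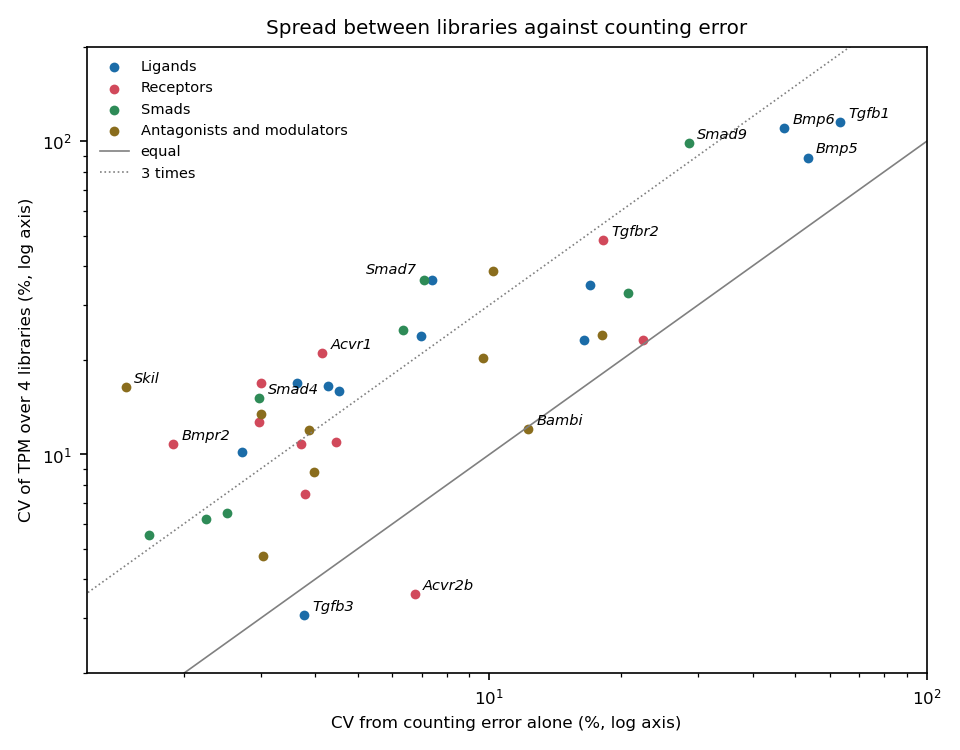
CV of TPM over the 4 libraries against the CV from counting error, both in percent on log axes, 1 point per pathway gene with at least 10 counts. The solid line marks equality and the dotted line 3 times the counting error; Skil lies farthest above and Acvr2b lowest below the solid line.

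No library was at an end for most members. Of the 39 genes, 11 were highest in replicate 1, 3 in replicate 2, 12 in replicate 3 and 13 in replicate 4, and 13, 14, 3 and 9 were lowest there in the same order. Replicate 2 was thus seldom the highest. The median of log2(TPM + 1) over all genes tested was lowest there too, at 2.45 against 2.54 to 2.58 elsewhere. Replicate 2 also had the highest erythroid sum, 4203 TPM against 2377 to 2683 TPM in the others. Its meningeal sum and its cortical hem and Cajal-Retzius sum were the highest as well. The part of these in the member levels was not tested. By role, 5 of 10 receptors were highest in replicate 4 and 6 of 12 ligands were lowest there.

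The length scale moved many levels. The authors' deposited TPM held all 40 measured genes, and its ratio to counts followed the whole gene span, introns included, for 95.3% to 95.4% of genes with at least 100 counts, within 0.01 on the log2 scale. On it, 16 of the 40 were more than 3-fold lower than by exon length and 11 were higher. In the authors' deposited table Bmpr1b, whose exons fill 5962 of 332290 bases, averaged 0.802 TPM, against 12.7 TPM by exon length, and Acvr1 averaged 1.22 TPM. The intronless Nog averaged 6.78 TPM there, against 1.93 TPM. Skil and Smad5 held the first 2 ranks on both scales, in opposite order. Bmp7 against Nog reversed, with a log2 ratio of -1.92 in the authors' deposited table, and so did Bmp7 against Bmp4 (-0.46), Tgfb2 against Tgfb3 (-0.86) and Smad4 against Smad2 (-0.74).

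**Figure D5:**
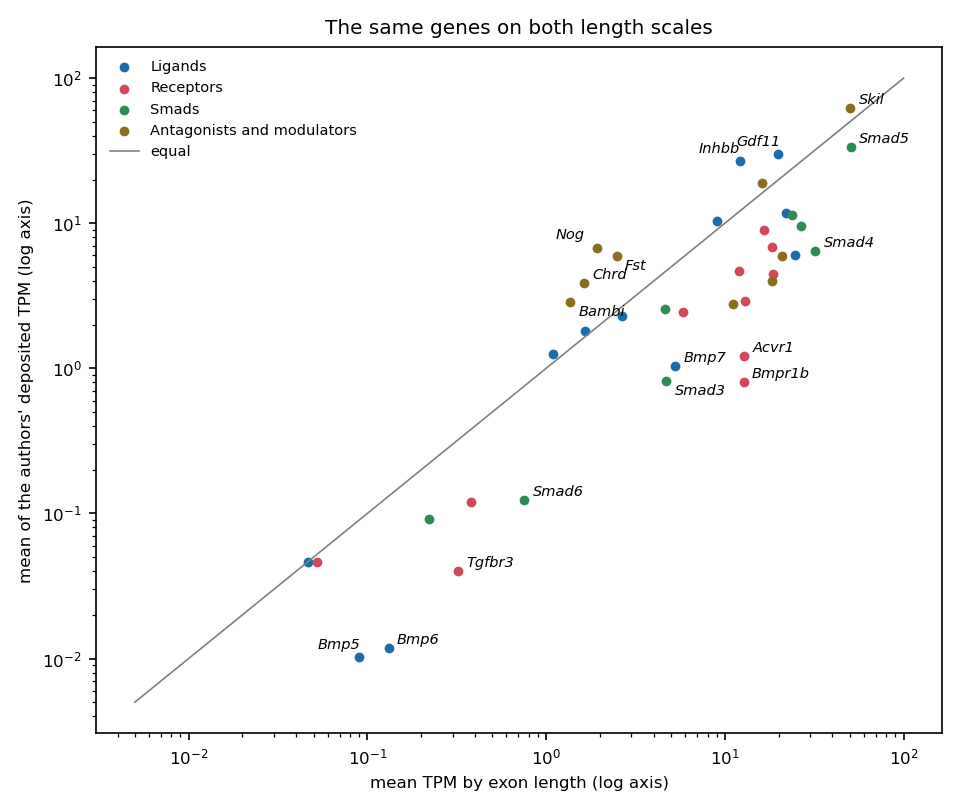
Mean of the authors' deposited TPM against mean TPM by exon length for the 40 measured genes, log axes, with a line at equality. Genes with long introns such as Bmpr1b (0.802 against 12.7 TPM) lie below the line, and compact genes such as Nog (6.78 against 1.93 TPM) above it.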

How the data were processed

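Read counts were analysed for 4 libraries of a single group. Per the labels' protocols, cDNA was made with tailed oligo-dT primers and template switching, amplified and sheared, with no strand marking described. Per the submitters' processing notes, bcl2fastq 2.19.1, STAR 2.5.2b and GRCm38 were used; which counter and annotation release were used is not stated in what was available here. Deposited counts are whole reads per Ensembl gene, and the deposited TPM is the authors' normalised table of 15648 genes.

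TPM was recomputed from the counts with merged exon lengths of GENCODE M21, in which 45143 of 45706 identifiers matched; the other 563 held 0.120% to 0.125% of counts. Genes with at least 10 counts were tested against 1 TPM with edgeR 4.0.16 (R 4.3.3; quasi-likelihood F test with the deviance at 1 TPM as null, two-sided, Benjamini-Hochberg, threshold 0.05), tested on simulated data. Ratios used a pseudocount of 1 and exact sign-flip permutation. Alternatives covered length, scaling (TMM; DESeq2 1.42.0 size factors and Wald test), filter, level, pseudocount and each library left out. All members may be named; of the other lists, the 3 highest genes each and every target; 1 TGF-beta target is not reported here. Members and lists were chosen with earlier results of these data known.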

Additional observations from a re-analysis of the deposited data

Results flagged for a closer look

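In 5 of 95 sets of 4 library values, the highest or lowest library lay apart from the other 3 by more than Dixon's 95% limit for 4 values. Chance alone gives about 1 in 20. Gdf11 was lowest in replicate 2, at 14.8 TPM against 21 to 21.8 TPM. Smad3 was lowest in replicate 1, at 2.94 TPM against 5.20 to 5.39 TPM. Acvr2a was highest in replicate 4, at 14.5 TPM against 12.5 to 12.6 TPM, and so was Neo1, at 35.1 TPM against 27.5 to 28.2 TPM. The log2 ratio of Smurf1 over Smurf2 was highest in replicate 1, at -0.42, against -0.79 to -0.75.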

How the results depend on the processing

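No paired analysis was possible because the labels give a single group. Of the 39 member levels, 38 or more kept their direction and side of the threshold under TMM, DESeq2 size factors, DESeq2's Wald test and no filter, and 35 to 37 with each library left out. Genes below 1 TPM numbered 4929 without a length correction, 6564 without the filter and 5326 against 2 TPM, compared with 2531. With each library left out, they numbered 1524 to 1704. Whether this lower number came from fewer low genes reaching 10 counts in 3 libraries was not tested. Members below 1 TPM numbered 3 without a length correction (Tgfbr2, Tgfbr3 and Smad9 were no longer called) and 3 to 5 with each library left out, compared with 6. Against 2 TPM, 5 of the antagonists and modulators were above. The role medians moved by more than their SD, in the order ligands, receptors, Smads, antagonists: to 2.04, 3.42, 3.41 and 3.43 with the longest transcript, 1.60, 1.79, 2.34 and 2.64 on the deposited scale, 2.88, 4.40, 4.31 and 4.46 without a length correction, and 2.32, 2.85, 3.27 and 3.11 as means; with a pseudocount of 0.1 the first 3 were 1.90, 3.62 and 3.54. On the deposited scale, receptors thus fell below Smads and antagonists. Pair ratios reversed on the deposited scale for Smad4/Smad2 (-0.74), Tgfb2/Tgfb3 (-0.86), Bmp7/Bmp4 (-0.46) and Bmp7/Nog (-1.92), without a length correction for Smad4/Smad2 (-0.80), Inhba/Inhbb (0.15) and Nog/Chrd (-1.02), and with the longest transcript for Nog/Chrd (-0.14). Levels of Bmpr1b (-0.32) and Smad3 (-0.28) reversed on the deposited scale, where Bmp7 was no longer called (0.05) and Smad6 was called below (-3.02). The sums on that scale were added after seeing the data. Against 2 TPM, those of Bmp2 (-0.88), Bmp4 (-0.28), Nog (-0.056), Chrd (-0.30) and Bambi (-0.55) reversed, since they lie between 1 and 2 TPM. Depth limits Acvrl1, Tgfb1, Bmp5 and Bmp6, with 8, 10, 14 and 18 counts over all libraries; without 1 library, 1 or 2 members fell under 10 counts and gave no value.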
